A study of Homo sapiens with 6 samples.

Results

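The mitochondrial ribosome translates the messenger RNAs made from mitochondrial DNA, all of which encode subunits of the respiratory chain and of ATP synthase. Its ribosomal RNAs are encoded in mitochondrial DNA, whereas its proteins are encoded in the nucleus, made in the cytosol and imported. Many of these proteins descend from bacterial ribosomal proteins and others were added in the course of mitochondrial evolution. The genes of these proteins, named MRPL for the large and MRPS for the small subunit, are described here in A549 cells, a human lung carcinoma line, with and without overexpression of the long noncoding RNA LOC401312. Members were chosen by name alone: every row of the deposited expression table whose symbol is MRPL or MRPS followed by a number and at most a letter A to C, pseudogenes left out. This rule found 78 genes among 38170 annotated features, 49 named MRPL and 29 named MRPS. MRPS30 and MRPS18A are known to sit in the large subunit, so 51 genes were placed in the large and 27 in the small subunit. MRPS36, counted here with the small subunit by its name, is now known as a part of the alpha-ketoglutarate dehydrogenase complex.

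The LOC401312 group held 3 libraries of A549 cells that carried LOC401312 in piggyBac, a transposon system that inserts its cargo into the genome, and the vector group held 3 libraries of A549 cells with the empty piggyBac vector. Total RNA was sequenced and the labels give no drug and no further difference between the groups. For LOC401312 replicates 2 and 3 the genotype field reads LOC401313 and LOC401314, against their titles, which were followed. The labels do not say whether a line is a single clone or whether libraries came from separate cultures, so each p-value below covers variation among the sequenced libraries alone, and this may be technical. LOC401312 lies inside the interval of the STEAP1B row, which had 1341, 1355 and 1352 CPM (counts scaled to a common library size) in the LOC401312 libraries, against 0.121, 0.184 and 0.374 CPM in the vector libraries. CPS1, the first enzyme of the urea cycle, had 126, 121 and 121 CPM in LOC401312 cells, against 58.6, 56.4 and 59.0 CPM in vector cells.

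Libraries held 60971105 to 73994619 counts, and the members had 295 to 10292 counts in a library. CPM here use TMM scaling, which corrects the library total for composition. The keratins KRT7, KRT8 and KRT18 were high in every library, and the summed level of 9 measured lung and epithelial markers was 9804 to 10327 CPM in LOC401312 cells and 9277 to 10173 CPM in vector cells. The lung lineage factor NKX2-1 and the surfactant genes SFTPA2, SFTPB and SFTPC were at 0 to 0.374 CPM throughout. Some libraries stood apart in markers of other cell types. The summed level of 10 placental markers was 2.59, 103 and 92.1 CPM in LOC401312 replicates 1, 2 and 3, against 1.72 to 2.59 CPM in vector cells. In the same order KISS1 had 0.241, 3.31 and 1.77 CPM, CGB8 had 0.439, 9.33 and 6.90 CPM, and CGB5 had 0.128, 6.12 and 8.03 CPM. KISS1, CGB8 and CGB5 were at 0 to 0.242 CPM in vector cells. That of 8 leukocyte and fibroblast markers was 33.9 to 34.6 CPM in LOC401312 cells and 49.5 to 79.7 CPM in vector cells. The collagen genes COL1A1 and COL1A2 had means of 12.1 and 5.32 CPM in LOC401312 cells, against 23.4 and 14.4 CPM in vector cells. In these 2 of the 8 all LOC401312 libraries lay below all vector libraries, as in 13.9% of all tested features. CD14 had means of 12.3 and 11.6 CPM, and vector replicate 1 alone had the leukocyte gene PTPRC above 1 CPM. That of 10 urothelial markers was 19.1 to 21.8 CPM in LOC401312 cells and 27.7 to 29.8 CPM in vector cells. Most of it was UPK3B, with a mean of 16.8 CPM in LOC401312 cells and 16.5 CPM in vector cells. KRT13, PSCA and ADIRF had means of 0.0236, 0.687 and 0.0496 CPM in LOC401312 cells, against 4.48, 2.53 and 1.29 CPM in vector cells. In 4 of the 10 all LOC401312 libraries lay below all vector libraries and in 0 above, against the same 13.9% of features below. The part of these differences in the results below was not tested.

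The promoters of 6 of the genes that fell, on 3 chromosomes, are shown so that their letters can be compared. Each line is the 250 bases before a RefSeq transcript start (GRCh38.p14), written 5′ to 3′ on the gene's own strand. Capitals mark every match to either of 2 motifs on either strand, the ETS core CCGGAAG and the GC box GGGCGG. The 4 genes on chromosome 2 that are shown lie at chr2:223957213-223957462 (MRPL44), chr2:105037819-105038068 (MRPS9), chr2:27771469-27771718 (MRPL33) and chr2:99180934-99181183 (MRPL30), all on the plus strand. MRPL24 lies at chr1:156741089-156741338 and MRPL11 at chr11:66438849-66439098, both on the minus strand.
MRPL44: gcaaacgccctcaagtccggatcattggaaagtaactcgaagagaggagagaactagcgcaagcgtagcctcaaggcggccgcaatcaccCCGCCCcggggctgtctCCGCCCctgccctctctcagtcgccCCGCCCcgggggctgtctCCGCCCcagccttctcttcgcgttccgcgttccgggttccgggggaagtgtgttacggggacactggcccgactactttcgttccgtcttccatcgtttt
MRPS9: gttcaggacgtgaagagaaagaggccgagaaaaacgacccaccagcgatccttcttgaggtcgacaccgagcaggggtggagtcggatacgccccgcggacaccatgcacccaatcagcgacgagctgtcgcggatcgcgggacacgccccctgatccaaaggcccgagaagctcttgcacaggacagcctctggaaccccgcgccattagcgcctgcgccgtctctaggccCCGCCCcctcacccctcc
MRPL33: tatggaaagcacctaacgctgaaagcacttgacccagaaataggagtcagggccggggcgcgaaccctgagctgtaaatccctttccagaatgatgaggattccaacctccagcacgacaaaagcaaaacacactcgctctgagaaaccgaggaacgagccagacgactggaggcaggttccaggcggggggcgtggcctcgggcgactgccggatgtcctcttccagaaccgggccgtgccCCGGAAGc
MRPL30: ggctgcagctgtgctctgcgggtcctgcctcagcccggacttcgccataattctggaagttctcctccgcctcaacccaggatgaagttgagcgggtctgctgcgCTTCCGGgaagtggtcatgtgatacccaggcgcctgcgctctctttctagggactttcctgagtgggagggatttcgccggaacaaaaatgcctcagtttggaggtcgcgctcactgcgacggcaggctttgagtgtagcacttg
MRPL24: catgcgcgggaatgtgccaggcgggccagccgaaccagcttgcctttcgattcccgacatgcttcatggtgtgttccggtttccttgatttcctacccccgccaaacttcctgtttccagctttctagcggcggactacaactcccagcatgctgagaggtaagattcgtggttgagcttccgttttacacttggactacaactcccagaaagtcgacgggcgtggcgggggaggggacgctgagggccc
MRPL11: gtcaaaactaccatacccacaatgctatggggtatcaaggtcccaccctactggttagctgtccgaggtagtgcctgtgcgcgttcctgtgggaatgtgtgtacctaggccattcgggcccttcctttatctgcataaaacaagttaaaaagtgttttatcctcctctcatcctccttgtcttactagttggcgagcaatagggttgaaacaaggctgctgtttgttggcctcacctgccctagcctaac

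The printed windows had neither motif in common. MRPL44 held 4 GC boxes, 100, 118, 143 and 160 bases before the start, and MRPS9 held a single GC box 18 bases before it. MRPL33 had an ETS core 8 bases before the start and MRPL30 an ETS core 145 bases before it. MRPL24 and MRPL11 held neither set of letters in this window. The MRPL24 window lies within the interval of the gene as counted (chr1:156737303-156741590), so the bases before that interval are not shown. Over all members, RefSeq gave 85 windows of this length for 69 of 78 genes. The ETS core was present in 31.8% of member windows, against 12.8% of 17681 windows of tested features and 8.52% of all 35116 windows. The NRF1 core GCATGCGC, bound by a regulator of nuclear genes for mitochondria, was present in 7.06% of member windows, against 3.81% of tested and 2.63% of all windows. The GC box was present in 55.3% of member windows and in 60.4% of tested windows, and the letters CCAAT in 30.6% and 32.4%. The letters TATAAA were present in 2.35% of member windows, against 6.52% of tested windows. All 5 motifs were searched on both strands, some windows of a gene overlap, and a match is a description of letters and not a bound site.

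In LOC401312 cells 8 of 78 members fell and none rose (edgeR quasi-likelihood test, Benjamini-Hochberg adjusted p below 0.05 over 19620 tested features). At an unadjusted p below 0.05, 26 were lower and 2 higher, but the share of all tested features at that cut-off was not counted. DESeq2 called 11 lower and 1 higher (MRPS35), where it called 6.6% of its tested features lower and 6.74% higher. All 78 members passed the filter on low counts. Of all tested features 4.58% fell and 4.13% rose, and of the 9798 features whose mean CPM was at least that of the lowest member 7.76% fell and 5.87% rose. The 8 genes are MRPL44, MRPS9, MRPL33, MRPL35 and MRPL30 on chromosome 2, MRPS2 on chromosome 9, MRPL24 on chromosome 1 and MRPL11 on chromosome 11. Of all members 64 of 78 had a negative log2 change, most of them without passing the test, against 51.3% of the 9798 features. The median log2 change of the members was -0.095, against -0.0042 for the 9798 features. In 24 members all LOC401312 libraries lay below all vector libraries and in 2 all lay above, where 13.9% of all tested features lay wholly below and 14% wholly above. Of the 9798 features 18.5% lay wholly below and 16.6% wholly above. In bulk RNA, fewer cells of a type and less RNA per cell cannot be told apart. 

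The count of 8 rested on the libraries used. It was 4 without LOC401312 replicate 1 (2.68% of all tested features fell), 3 without LOC401312 replicate 2 (2.15%) and 4 without LOC401312 replicate 3 (2.58%). It was 16 without vector replicate 1 (5.13%), 4 without vector replicate 2 (2.82%) and 4 without vector replicate 3 (2.39%). With LOC401312 replicate 1 alone no member passed and 0.415% of features fell. It was 8 with RLE scaling (4.58%), 8 with limma on log2 CPM (4.8%), 4 without the low-count filter (1.73%) and 4 with the replicate number as a block (2.95%). Scaling by total counts alone gave 7 lower and 1 higher (3.84% and 5.09% of features). On log2 FPKM, limma gave 3 lower and 1 higher with a pseudocount of 0.1 (1.61% and 8.36%) and with a pseudocount of 1 (1.58% and 8.28%), and 6 lower once the library medians were made equal (3.23%). Features of at least 5 FPKM were shifted up in LOC401312 libraries by a median of 0.109 on the first FPKM scale, where 30 of 78 members were negative, against 62 of 78 with medians equal. MRPL33, MRPL44 and MRPS9 were called in each of these settings except LOC401312 replicate 1 alone.

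**Figure D1:**
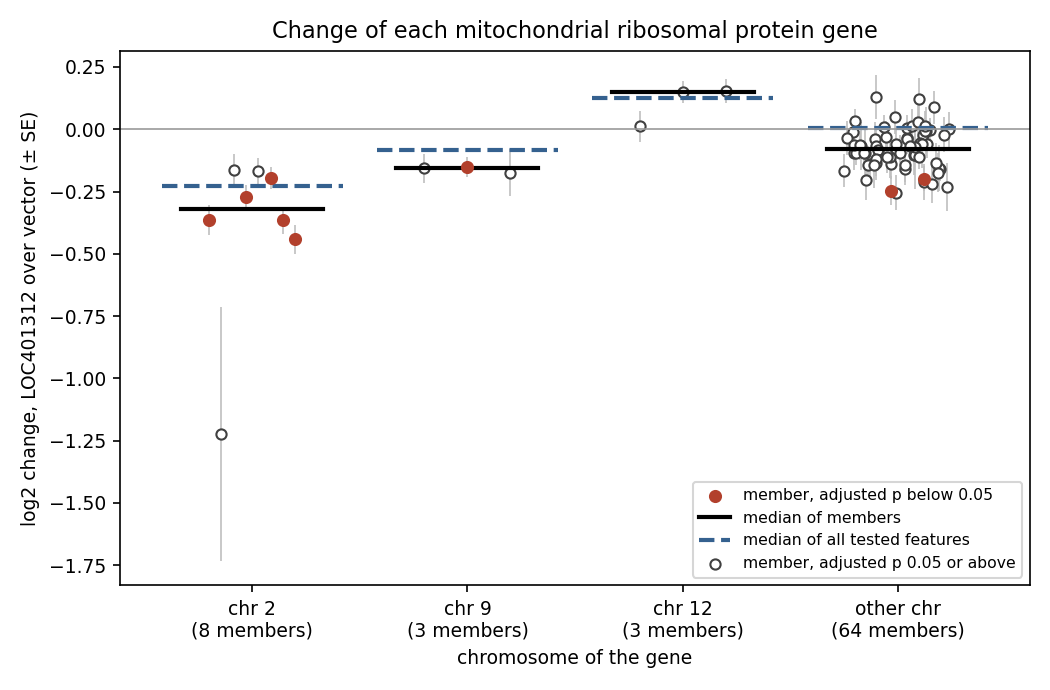
Log2 change of each of the 78 genes (LOC401312 over vector, point ± SE from edgeR, n = 3 libraries each) by chromosome class, with the median of the members (black line) and of all tested features of the class (dashed line). Filled points passed the test, 5 on chromosome 2, 1 on chromosome 9 and 2 elsewhere, and the lowest open point with the wide error is MRPL53.

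The changes differed by chromosome. The split into chromosomes 2, 9, 12 and other was fixed with the members, which were chosen with earlier results of these data known. The difference is thus not an independent finding. On chromosome 2, 5 of 8 members fell and their median log2 change was -0.32, with 7 of 8 wholly below vector. Among all 1285 tested features of chromosome 2, 27.1% fell, 1.32% rose, 47.3% lay wholly below and the median was -0.23. On chromosome 9, 1 of 3 members fell with a median of -0.16 and 2 lay wholly below, where 8.96% of 792 features fell, 1.77% rose, 25% lay wholly below and the median was -0.083. On chromosome 12, none of 3 members passed and their median was 0.15, where 11.1% of 1069 features rose, 0.748% fell and the median was 0.13. On the other chromosomes 2 of 64 members fell, near the 2.87% of 16474 features that fell there, while 4.01% rose. Wholly below vector were 15 of the 64, against 11.4% of those features. The median of these 64 members was -0.078 and 53 of them were negative, against a median of 0.0066 for all features there, but on log2(FPKM + 0.1) it turned to 0.049, within the upward shift of that scale. It was -0.051 without LOC401312 replicate 3.

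MRPL44, a large subunit protein with a ribonuclease III-like fold and no bacterial ribosomal counterpart, was the most reduced member that passed the test. The gene lies at chr2:223957463-223967714 on the plus strand (GRCh38, as the other gene positions). It had 32.8, 32.8 and 35.4 CPM in LOC401312 cells, against 48.0, 45.3 and 44.0 CPM in vector cells. The groups were well apart, with every LOC401312 library below every vector library. The log2 change was -0.44 (SE 0.058, adjusted p = 0.00136), and the gene kept its call without each library in turn. MRPS9, the counterpart of the bacterial small subunit protein that reaches toward the tRNA in the peptidyl site, lies at chr2:105038069-105099960 on the plus strand. It had 30.03, 28.8 and 29.8 CPM in LOC401312 cells, against 39.1, 37.7 and 37.3 CPM in vector cells. Each group spanned less than 2 CPM and the groups did not overlap. The log2 change was -0.37 (SE 0.054, adjusted p = 0.00281).

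MRPL33, the counterpart of bacterial L33, lies at chr2:27771717-27779734 on the plus strand. It had 47.0, 50.6 and 47.5 CPM in LOC401312 cells, against 57.01, 64.6 and 65.4 CPM in vector cells. All vector libraries were above all LOC401312 libraries, with vector replicate 1 nearest to them. The log2 change was -0.37 (SE 0.061, adjusted p = 0.00514). MRPL35, the counterpart of bacterial L35, lies at chr2:86199355-86213738 on the plus strand. It had 59.1, 55.5 and 54.9 CPM in LOC401312 cells, against 70.6, 66.9 and 67.0 CPM in vector cells. The groups did not overlap and the log2 change was -0.27 (SE 0.048, adjusted p = 0.00723), but without LOC401312 replicate 2 the adjusted p was 0.0552.

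MRPL30, the counterpart of bacterial L30, lies at chr2:99181152-99199561 on the plus strand. It had 53.1, 53.2 and 50.1 CPM in LOC401312 cells, against 59.8, 60.5 and 58.7 CPM in vector cells. The gap between the groups was wider than the range within either, with a log2 change of -0.20 (SE 0.045, adjusted p = 0.0255). This call was lost without any single library other than vector replicate 1, with adjusted p up to 0.122. MRPS5, whose bacterial counterpart is known for its role in decoding accuracy, lies at chr2:95085369-95149434 on the minus strand and had 71.5, 74.7 and 66.6 CPM in LOC401312 cells, against 81.5, 77.0 and 80.4 CPM in vector cells. These values did not overlap but did not pass the test (log2 change -0.17, SE 0.052, adjusted p = 0.0820). MRPL19, the counterpart of a bacterial protein at the interface of the subunits, had 80.6, 92.4 and 93.2 CPM in LOC401312 cells, against 106, 97.8 and 94.4 CPM in vector cells. Its groups nearly touched and the log2 change of -0.16 (SE 0.065) had an adjusted p of 0.166. MRPS5 overlaps the expressed gene ZNF514 on the same strand and MRPL19 overlaps GCFC2 on the opposite strand, and whether the counting used strand is not stated in the labels.

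MRPL53, a large subunit protein with no bacterial counterpart, was the exception on chromosome 2. It had 11.2, 4.32 and 8.205 CPM in LOC401312 cells, against 6.93, 13.2 and 35.3 CPM in vector cells. The groups overlapped, and vector replicate 3 alone was far above the rest. The log2 change of -1.22 was the largest among the members in size, with an SE of 0.51 and an adjusted p of 0.186. It was -0.35 (adjusted p = 0.711) without vector replicate 3, where MRPL44 at -0.47 was larger in size, and -1.62 (adjusted p = 0.0416) without vector replicate 1. MRPL53 at chr2:74471982-74472687 overlaps CCDC142 on the same strand, and CCDC142, looked up after the MRPL53 values were seen, had 38.3, 41.4 and 30.3 CPM in LOC401312 cells and 39.8, 43.1 and 18.5 CPM in vector cells. The library with the highest MRPL53 level had the lowest CCDC142 level. The sum of both genes was 49.5, 45.7 and 38.5 CPM in LOC401312 cells and 46.7, 56.2 and 53.8 CPM in vector cells, so vector replicate 3 was not the highest library in the sum.

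**Figure D2:**
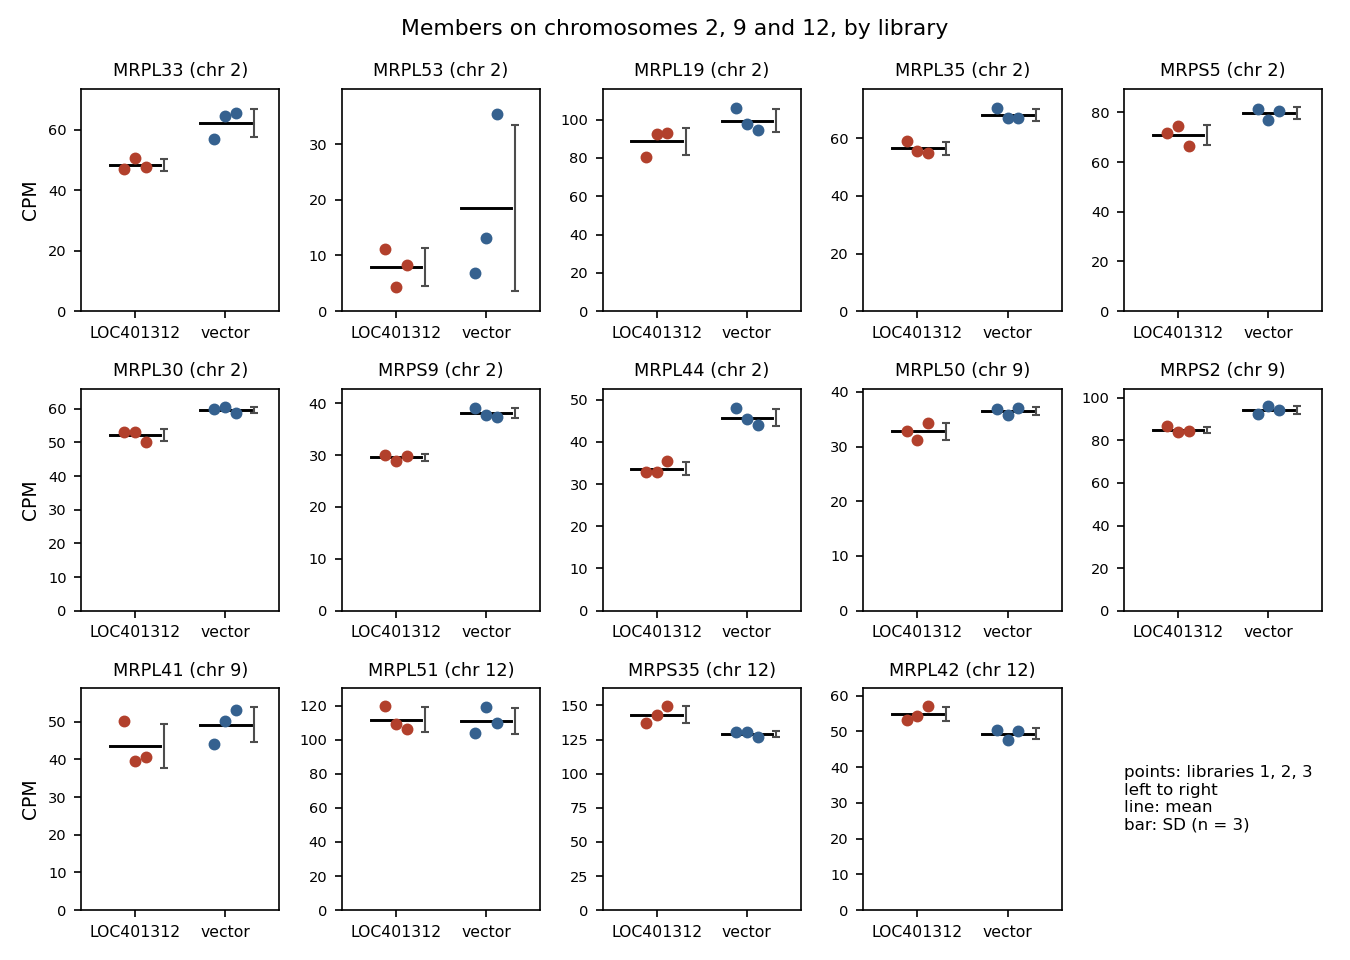
CPM of the 14 members on chromosomes 2, 9 and 12 in each library (points, replicates 1 to 3 from left to right), LOC401312 libraries left of vector libraries, with the mean (line) and SD (bar, n = 3 each). In 7 of 8 panels of chromosome 2 all LOC401312 points lie below all vector points, and in the panels of MRPS35 and MRPL42 all lie above.

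On chromosome 9, MRPS2, the counterpart of a bacterial protein of the small subunit that joins late in its assembly, had 86.7, 84.0 and 84.2 CPM in LOC401312 cells, against 92.5, 95.9 and 94.5 CPM in vector cells. The groups did not overlap, and the log2 change was -0.15 (SE 0.041, adjusted p = 0.0491). The value stood at the threshold: it was lost without any single library other than vector replicate 1, with adjusted p up to 0.189. MRPS2 overlaps C9orf116, at 7.80 CPM, on the opposite strand. MRPL50, with no bacterial counterpart, had 32.8, 31.2 and 34.4 CPM in LOC401312 cells, against 36.9, 35.7 and 37.1 CPM in vector cells. It lay lower in every LOC401312 library without passing (log2 change -0.16, SE 0.057, adjusted p = 0.131). MRPL41, also without a bacterial counterpart, had 50.3, 39.6 and 40.8 CPM in LOC401312 cells and 44.1, 50.3 and 53.1 CPM in vector cells. LOC401312 replicate 1 and vector replicate 2 were level, and the log2 change of -0.17 (SE 0.096) had an adjusted p of 0.327.

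On chromosome 12, 2 of 3 members lay the other way without passing the test. MRPS35, a small subunit protein specific to mitochondria, had 137, 143 and 149.6 CPM in LOC401312 cells, against 130.5, 130.8 and 127 CPM in vector cells. All LOC401312 libraries were above all vector libraries, with a log2 change of 0.15 (SE 0.044) that did not pass at an adjusted p of 0.0676. MRPL42 had 53.3, 54.4 and 57.1 CPM in LOC401312 cells, against 50.4, 47.5 and 50.2 CPM in vector cells. These groups did not overlap either, and the log2 change was 0.15 (SE 0.048, adjusted p = 0.0841). MRPL51 had 119.8, 109 and 106 CPM in LOC401312 cells and 104, 119 and 109.8 CPM in vector cells. The groups overlapped over nearly their whole range (log2 change 0.011, SE 0.062, adjusted p = 0.944). Among all tested features, 32.5% of those on chromosome 12 lay wholly above vector, as MRPS35 and MRPL42 did.

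When the median shift of each chromosome was removed from each library before testing (limma on log2 CPM), none of the 8 members on chromosome 2 passed and their median log2 change was -0.089. MRPL44 was then at -0.21 (adjusted p = 0.0539), MRPS9 at -0.14 (adjusted p = 0.180), MRPL33 at -0.14 (adjusted p = 0.270) and MRPL35 at -0.043 (adjusted p = 0.691). MRPL30, MRPS5 and MRPL19 turned to 0.033, 0.061 and 0.063, so their direction held only with the chromosome shift left in. MRPS2 was at -0.064 (adjusted p = 0.408), MRPS35 at 0.031 and MRPL42 at 0.037, while MRPL51 turned to -0.10. In this fit 2 members fell and none rose, MRPL24 and MRPL11, where 2.85% of all features fell. The medians of the 4 classes were then -0.089 on chromosome 2, -0.071 on chromosome 9, 0.031 on chromosome 12 and -0.082 elsewhere.

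**Figure D3:**
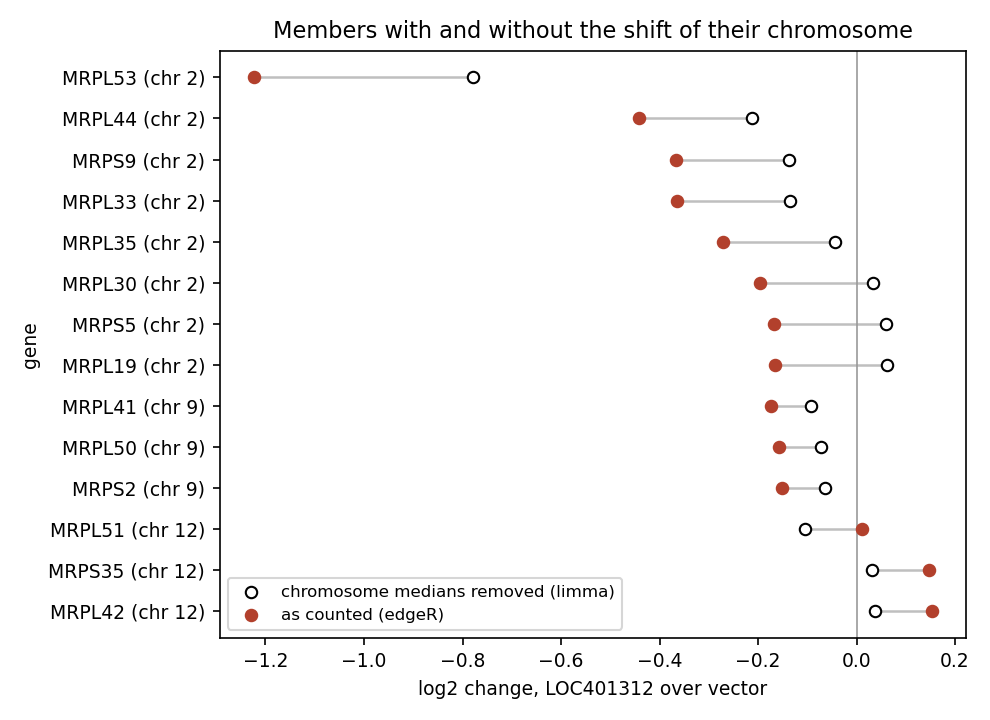
Log2 change (LOC401312 over vector) of the 14 members on chromosomes 2, 9 and 12 as counted (filled, edgeR) and after removal of each chromosome's median shift (open, limma on log2 CPM), joined by a line. MRPL44 moved to -0.21, and MRPL30, MRPS5, MRPL19 and MRPL51 crossed 0.

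Outside these chromosomes, MRPL24 and MRPL11 were the members that fell. MRPL24, the counterpart of a bacterial protein that starts assembly of the large subunit, lies at chr1:156737303-156741590 on the minus strand. It had 96.8, 96.4 and 91.4 CPM in LOC401312 cells, against 102.5, 117 and 118 CPM in vector cells. The groups did not overlap, but vector replicate 1 was nearer to the LOC401312 libraries than to the other vector libraries. The log2 change was -0.25 (SE 0.059, adjusted p = 0.0284). MRPL11, the counterpart of a bacterial protein at the base of the stalk where translation factors bind, lies at chr11:66435075-66438848 on the minus strand. It had 51.2, 53.5 and 52.1 CPM in LOC401312 cells, against 57.1, 62.4 and 60.4 CPM in vector cells. These groups did not overlap, and the log2 change was -0.20 (SE 0.049, adjusted p = 0.0329). Both calls were lost without any single library other than vector replicate 1, with adjusted p up to 0.126 for MRPL24 and 0.120 for MRPL11.

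The next 5 genes by size of change did not pass. MRPL22, whose bacterial counterpart lines the exit tunnel, had 30.9, 27.8 and 29.3 CPM in LOC401312 cells, against 33.4, 38.0 and 33.8 CPM in vector cells (log2 change -0.25, SE 0.071, adjusted p = 0.0525). MRPL21 had 26.3, 26.8 and 23.7 CPM in LOC401312 cells and 25.8, 32.7 and 31.7 CPM in vector cells (log2 change -0.23, SE 0.095, adjusted p = 0.177). MRPL22 groups stood apart, while vector replicate 1 of MRPL21 lay among the LOC401312 libraries. MRPL47 had 21.4, 22.1 and 22.5 CPM in LOC401312 cells and 26.4, 27.1 and 23.3 CPM in vector cells (log2 change -0.22, SE 0.077, adjusted p = 0.117). MRPL39 had 17.5, 17.6 and 17.9 CPM in LOC401312 cells and 19.9, 21.6 and 20.1 CPM in vector cells (log2 change -0.21, SE 0.073, adjusted p = 0.109). MRPL34 had 20.2, 19.3 and 20.5 CPM in LOC401312 cells and 20.7, 24.1 and 24.3 CPM in vector cells (log2 change -0.20, SE 0.082, adjusted p = 0.174). In MRPL47, MRPL39 and MRPL34 the groups did not overlap. Without vector replicate 1, MRPL21, MRPL22 and MRPL34 had adjusted p of 0.0268, 0.0476 and 0.0487.

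The lean toward lower values outside chromosomes 2, 9 and 12 did not separate the libraries by group. The median of the 64 members, as log2 level relative to the mean of the vector libraries, was -0.044, -0.061 and -0.13 in LOC401312 libraries, against -0.066, 0.046 and 0.032 in vector libraries. Vector replicate 1 thus lay among the LOC401312 libraries. On chromosome 2 the same medians were -0.32, -0.30 and -0.33 in LOC401312 libraries, against 0.037, -0.018 and -0.024 in vector libraries, well apart. There the medians of all features with at least 4 CPM were -0.24, -0.23 and -0.23 in LOC401312 libraries and 0.012, -0.0016 and -0.0067 in vector libraries. The median of the 8 members was thus below the median of their chromosome in every LOC401312 library, while 5 of 8 members were negative and 3 positive with chromosome medians removed. Vector replicate 1 was below both other vector libraries in 47 of 78 members (60.3%), against 40.8% of the 9798 features.

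**Figure D4:**
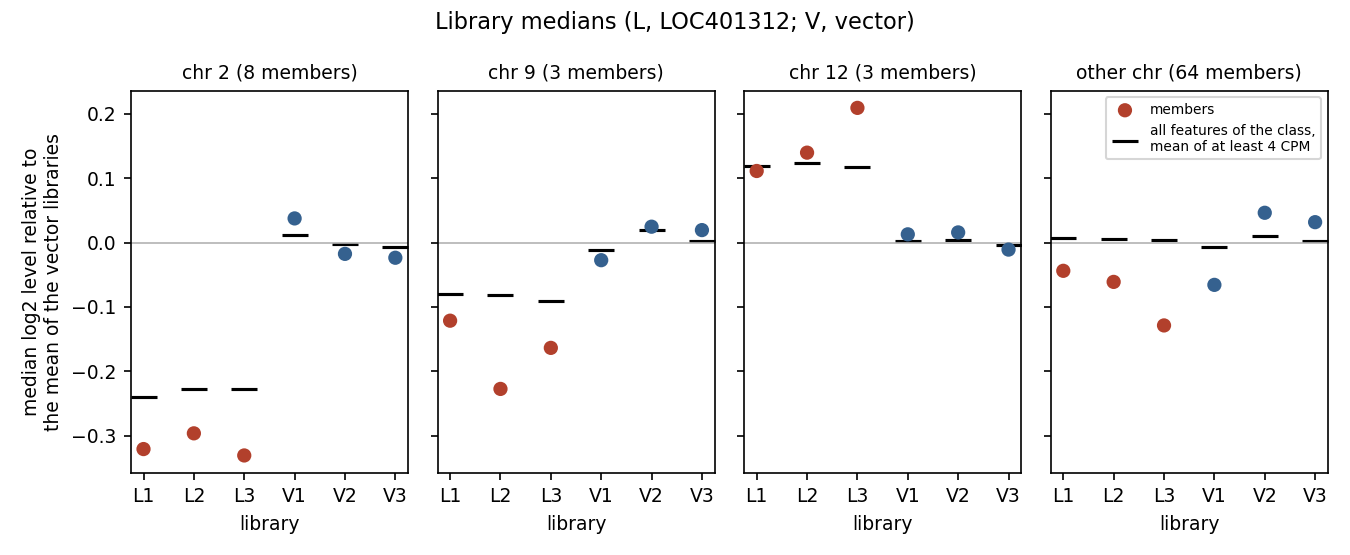
Median log2 level of the members in each library, relative to the mean of the vector libraries, by chromosome class (points, L for LOC401312 in red and V for vector in blue), beside the median of all features of the class with at least 4 CPM (black dashes). On chromosome 2 the LOC401312 points lie between -0.33 and -0.30 and the vector points near 0, whereas on the other chromosomes vector replicate 1 lies at -0.066 among the LOC401312 points.

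Summed over all 78 genes, the members had 4093, 4013 and 3908 CPM in LOC401312 libraries, against 4073, 4348 and 4333 CPM in vector libraries. The groups overlapped, since LOC401312 replicate 1 was above vector replicate 1. The 51 large subunit genes summed to 2439, 2394 and 2345 CPM in LOC401312 libraries, against 2470, 2640 and 2638 CPM in vector libraries, without overlap. The 27 small subunit genes summed to 1653.5, 1620 and 1563 CPM in LOC401312 libraries and 1603, 1708 and 1695 CPM in vector libraries, with overlap. The large subunit sum includes MRPL33, MRPL53, MRPL19, MRPL35, MRPL30 and MRPL44 on chromosome 2, and the small subunit sum MRPS5 and MRPS9. The separation of the large subunit sums thus includes the shift of that chromosome and cannot be read as a trait of the subunit. Of the large subunit genes 6 of 51 fell, with a median log2 change of -0.11, and of the small subunit genes 2 of 27 fell, with a median of -0.061. Outside chromosomes 2, 9 and 12 the medians were -0.10 for 41 large and -0.061 for 23 small subunit genes. The median of all 27 small subunit genes rested on single libraries: it was -0.019 without vector replicate 2, -0.026 without LOC401312 replicate 3 and -0.089 without LOC401312 replicate 1. On log2(FPKM + 0.1) the medians of all large and all small subunit genes turned to 0.011 and 0.063, below the shift of 0.109 on that scale. The difference between the subunits was not tested.

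Members were also split by whether they have a bacterial counterpart, and the difference was not tested. Of 45 members with a bacterial counterpart 7 fell and the median log2 change was -0.097, and of 31 without such a counterpart 1 fell, MRPL44, with a median of -0.094. The order of these medians turned with the libraries used. Members with a counterpart were at -0.13 and those without at -0.10 when vector replicate 1 was left out, against -0.056 and -0.085 when vector replicate 2 was left out. Of all tested features 4.58% fell. Of the 7 with a counterpart that fell, MRPS9, MRPL33, MRPL35 and MRPL30 lie on chromosome 2, where 27.1% of features fell. Outside chromosomes 2, 9 and 12, 2 of 38 members with a counterpart fell and 0 of 24 without, where 2.87% of features fell. The medians there were -0.070 with and -0.090 without a counterpart, so the order turned here too. MRPL55 and MRPS36 were left out of this split. Of the 8 members on chromosome 2, MRPL44 and MRPL53 are those without a bacterial counterpart.

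The levels of the members, compared per length as deposited FPKM (fragments scaled by gene length and library size), spanned 44.6 times. MRPL12, the stalk protein that recruits translation factors, was highest with 129, 123.2 and 114 FPKM in LOC401312 cells and 115, 119 and 115 FPKM in vector cells. MRPL51 followed with 70.5 ± 5.55 FPKM in LOC401312 cells and 64.0 ± 2.94 FPKM in vector cells, and MRPL41 with 65.6 ± 9.77 FPKM in LOC401312 cells and 67.6 ± 3.90 FPKM in vector cells (SD, n = 3 each). MRPL51 and MRPL41 did not differ beyond their spread. The lowest were MRPL42 with 2.93 ± 0.078 FPKM in LOC401312 cells and 2.42 ± 0.15 FPKM in vector cells, MRPS18C with 4.30 ± 0.62 FPKM in LOC401312 cells and 3.97 ± 0.24 FPKM in vector cells, and MRPL46 with 4.12 ± 0.21 FPKM in LOC401312 cells and 4.23 ± 0.18 FPKM in vector cells. MRPS18C and MRPL46 overlapped in both groups, and the median member was at 14.2 FPKM. These ranks depend on the length assigned to a gene. The exons of MRPL42 cover 16393 bases in GENCODE release 29, and MRPL41, at rank 3 in FPKM, was at rank 13 when CPM were divided by exon length from that release.

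**Figure D5:**
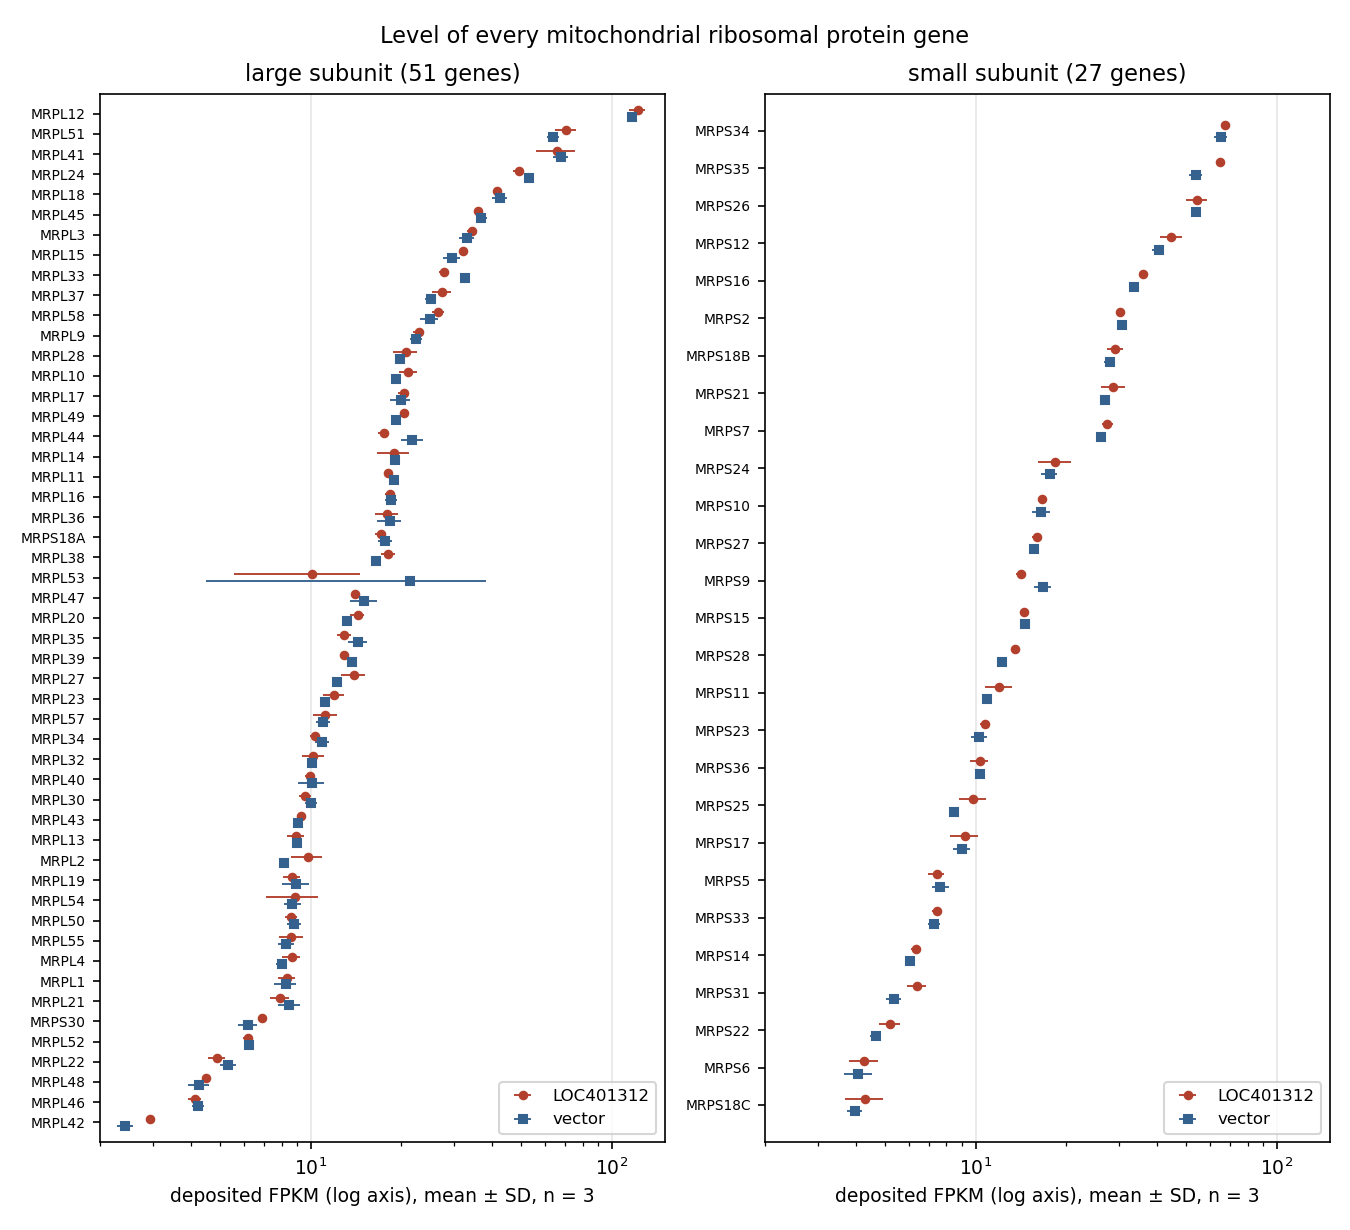
Mean deposited FPKM (log axis) ± SD (n = 3 libraries each) of all 51 large and 27 small subunit genes, with LOC401312 (red circles) drawn just above vector (blue squares) for each gene, sorted by mean. The levels run between 2.67 FPKM for MRPL42 and 119 FPKM for MRPL12, and the error of MRPL53 is the widest.

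Other genes of mitochondrial translation showed few changes. Of 5 mitoribosome subunits with names outside the rule (DAP3, AURKAIP1, CHCHD1, PTCD3 and GADD45GIP1), PTCD3, an RNA-binding small subunit protein on chromosome 2, fell and none rose. PTCD3 had 98.9, 101 and 96.5 CPM in LOC401312 cells, against 112, 109.5 and 116 CPM in vector cells (log2 change -0.19, SE 0.043, adjusted p = 0.0230). It kept its call without vector replicate 1 or 2 and lost it without any other library, with adjusted p up to 0.109, and with chromosome medians removed it was at 0.042. None of 12 translation factors passed in edgeR and their median was -0.030, or -0.0063 without vector replicate 1, -0.011 without vector replicate 2 and -0.050 without LOC401312 replicate 1. At an unadjusted p below 0.05, 4 of them were lower and 1 higher, and the share of all tested features there was not counted. DESeq2 called 1 of the translation factors lower, MRRF. MRRF, which recycles ribosomes after termination, had 60.9, 62.6 and 56.1 CPM in LOC401312 cells, against 70.1, 69.4 and 65.6 CPM in vector cells (log2 change -0.19, SE 0.054, adjusted p = 0.0544). MTIF2, which brings the initiator tRNA, was at -0.15 (SE 0.045, adjusted p = 0.0769) and lies on chromosome 2.

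Of 24 assembly factors of the mitochondrial ribosome, 2 fell and none rose, with a median of 0.0049, while DESeq2 called 2 lower and 3 higher. The sign of this median rested on single libraries: it was -0.022 without LOC401312 replicate 1, -0.0026 without LOC401312 replicate 2 and -0.012 without vector replicate 1. It was 0.027 without LOC401312 replicate 3, 0.020 without vector replicate 2 and 0.013 without vector replicate 3. MTERF4, which guides the methyltransferase of the small ribosomal RNA, lies on chromosome 2 and had 19.4, 18.6 and 18.7 CPM in LOC401312 cells, against 23.5, 23.7 and 25.5 CPM in vector cells. The groups were apart (log2 change -0.36, SE 0.071, adjusted p = 0.0115), though the adjusted p was 0.0547 without LOC401312 replicate 2 and 0.0569 without vector replicate 3. NGRN, needed for the large ribosomal RNA, had 151, 149 and 152 CPM in LOC401312 cells, against 161, 170.2 and 167 CPM in vector cells (log2 change -0.14, SE 0.039, adjusted p = 0.0497). Its call was lost without any single library other than vector replicate 1, with adjusted p up to 0.180. Of 19 genes of mitochondrial DNA transcription and RNA handling, SLIRP, which stabilises mitochondrial messenger RNAs, fell and none rose. SLIRP had 28.4, 26.8 and 28.3 CPM in LOC401312 cells, against 30.6, 37.2 and 37.5 CPM in vector cells (log2 change -0.33, SE 0.083, adjusted p = 0.0336), and again only without vector replicate 1 was the call kept (adjusted p up to 0.132 without another library).

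The products that the ribosome reads and contains were measured in the same libraries. Of 13 protein-coding genes of mitochondrial DNA, 4 fell and none rose, where 4.58% of all tested features fell. The rows of MT-ND4L and MT-ND4 overlap, as do those of MT-ATP8 and MT-ATP6, so the 13 are not all separate messenger RNAs. Of the 13, 11 had a negative log2 change. The median was -0.049, or -0.091 without LOC401312 replicate 3 and -0.096 without vector replicate 3. MT-ND3, a subunit of complex I, had 690.1, 801 and 819 CPM in LOC401312 cells, against 979, 1142 and 1166 CPM in vector cells. Its groups did not overlap (log2 change -0.51, SE 0.076, adjusted p = 0.00281), and the call was kept without each library in turn. MT-ND2 (log2 change -0.14, SE 0.030, adjusted p = 0.0188) and MT-CO3 (log2 change -0.17, SE 0.039, adjusted p = 0.0223) also fell, as did MT-ND1 (log2 change -0.15, SE 0.036, adjusted p = 0.0302), named to complete the count after its values were seen. These 3 calls were lost without LOC401312 replicate 1, LOC401312 replicate 2 or vector replicate 3, and those of MT-ND2 and MT-ND1 also without LOC401312 replicate 3, with adjusted p up to 0.122. MT-RNR2, the large ribosomal RNA, had 12185, 12798 and 12822 CPM in LOC401312 cells, against 14508, 14385 and 14530 CPM in vector cells. It fell by 0.20 on the log2 scale (SE 0.028, adjusted p = 0.00183). MT-RNR1, the small ribosomal RNA, had 1169, 1281 and 1154 CPM in LOC401312 cells and 1204, 1193 and 1257 CPM in vector cells (log2 change -0.020, adjusted p = 0.852). Whether any handling of ribosomal RNA before sequencing shaped these counts was not tested, so they may not follow the levels in cells.

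The members were set beside the gene families most like them, and the differences between families were not tested. Outside chromosomes 2, 9 and 12, 2 of 64 members fell, against 16 of 68 cytosolic ribosomal protein genes and 6 of 67 nuclear genes for subunits of oxidative phosphorylation. Of all 16474 tested features there 2.87% fell. The median log2 changes there were -0.078 for the members, -0.13 for the cytosolic ribosomal protein genes and -0.043 for the oxidative phosphorylation genes. On chromosome 2, 5 of 8 members fell, as did 4 of 4 cytosolic ribosomal protein genes and 5 of 5 oxidative phosphorylation genes. Their medians were -0.32, -0.38 and -0.34. Of all 1285 tested features of chromosome 2, 27.1% fell and the median was -0.23. Summed cytosolic ribosomal protein genes had 47121, 44433 and 41838 CPM in LOC401312 libraries and 45269, 50287 and 49571 CPM in vector libraries, again with vector replicate 1 among the LOC401312 libraries.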

How the data were processed

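The table of 38170 features held whole-number counts and FPKM of each of 6 libraries. The counts were deposited by the authors without normalization, per the file headers. The FPKM values, deposited by the authors, are scaled for length and library total. The submitters' processing notes name cutadapt 1.9, FastQC and build GRCh38 (hg38). Which aligner, counter, annotation release and strand setting were used is not stated there. Of the 78 members, 30 overlap another feature of at least 1 CPM (24 on the opposite strand, 7 on the same).

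Counts were tested with edgeR 4.0.16 in R 4.3.3 (TMM, filterByExpr, quasi-likelihood test, group only, Benjamini-Hochberg over 19620 features, threshold 0.05). SE was taken from the log2 change and the F statistic. The biological coefficient of variation was 17%, and libraries within a group differed beyond sampling noise (chi-square over degrees of freedom between 13.96 and 23.1, features averaging 50 counts or more). Alternatives were DESeq2 1.42.0, limma 3.58.1 on log2(FPKM + 0.1), log2(FPKM + 1) and log2 CPM, RLE or no scaling, no filter, a replicate block, each library left out, LOC401312 replicate 1 alone, and removal of the median of each of 23 chromosomes per library. Only the edgeR fit was tested on simulated data, with set log2 changes larger in size than that of any member that passed.

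The members and gene lists were chosen with earlier results of these data known. Genes were named by rule: all members on chromosomes 2, 9 and 12, every other member past the threshold and the 5 remaining members with the largest changes. Also named were the 3 highest and 3 lowest in FPKM, up to 3 of each list past the threshold (or the 2 smallest p), CPS1 and STEAP1B. Some marker genes outside this rule, such as the keratins and PTPRC, were named as well. Promoters are from RefSeq (GRCh38.p14), and 75 of 85 member windows had the letters after the start found in a GENCODE 29 transcript.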

Additional observations from a re-analysis of the deposited data

How the results depend on the processing

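With RLE scaling or limma on log2 CPM (added after seeing the data), 8 members fell. DESeq2 called 11 lower and 1 higher (MRPS35). Scaling by total alone called 7 lower and 1 higher, and the median of translation factors was -0.0054. Without the low-count filter 4 fell. Leaving out 1 library gave 3 to 16 lower. The median of translation factors then ran between -0.050 and -0.0063 and that of mitochondrial messenger RNAs between -0.096 and -0.044. MRPL51 ran between -0.041 (without LOC401312 replicate 1) and 0.067 (without vector replicate 2), and was at -0.035 without vector replicate 1. With LOC401312 replicate 1 alone against 3 vector libraries 0 members passed, where 91 features fell and 84 rose. MRPL41 was then at 0.035, and medians were -0.053 for members without a bacterial counterpart, -0.058 for translation factors and -0.11 for mitochondrial messenger RNAs. The lone library was assumed to vary like the others.

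Same-numbered libraries did not pair: their deviations from the group means correlated at -0.15, -0.032 and -0.057, and 0 of 3 matched its own number best. With the replicate block 4 members fell (MRPL33, MRPL35, MRPL44 and MRPS9).

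The deposited FPKM were shifted up in LOC401312 libraries, by a median of 0.109 with a pseudocount of 0.1 and 0.102 with 1 over features of at least 5 FPKM, so changes are to be read against that shift. Both called 3 members lower and 1 higher. With pseudocounts of 0.1 and 1, medians were -0.19 and -0.18 on chromosome 2, -0.031 and -0.028 on chromosome 9, 0.27 and 0.20 on chromosome 12, 0.049 and 0.048 elsewhere, 0.011 and 0.011 for the large and 0.063 and 0.056 for the small subunit, and 0.031 and 0.028 both with and without a bacterial counterpart. They were -0.011 and -0.010 for cytosolic ribosomal protein genes, 0.078 and 0.076 for oxidative phosphorylation, -0.0068 and -0.0065 for subunits named otherwise, 0.096 and 0.092 for translation factors, 0.13 and 0.11 for assembly factors, 0.13 and 0.12 for mitochondrial transcription and RNA handling, and 0.077 and 0.077 for mitochondrial messenger RNAs. With library medians equalised (added after seeing the data) 6 fell.

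With chromosome medians removed 2 members fell, and medians were -0.089, -0.071 and 0.031 on chromosomes 2, 9 and 12, -0.045 for subunits named otherwise and -0.067 for translation factors. The changes of MRPL19, MRPL30, MRPS5, PTCD3 and MTIF2 became 0.063, 0.033, 0.061, 0.042 and 0.080, and that of MRPL51 -0.10. MRPL33, MRPL44 and MRPS9 were called in each setting except this and LOC401312 replicate 1 alone. The causes of the other shifts were not tested.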

Other observations

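The table also held 24 rows named as pseudogenes of 19 members, 3 of them at or above 1 CPM, all together 10.47 CPM on average. MRPL45P2 had 4.26 CPM on average over all libraries, MRPS31P5 had 2.78 CPM and MRPS31P4 had 2.65 CPM.

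Without vector replicate 1 the members that fell, beyond the 8 above, were MRPL16, MRPL17, MRPL18, MRPL21, MRPL22, MRPL34, MRPL53 and MRPS15. In that setting 5.13% of 20311 features fell and 4.74% rose.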
